A study of Mus musculus with 6 samples.

Results

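The CAP superfamily is a group of proteins named for the cysteine-rich secretory proteins, antigen 5 and pathogenesis-related 1 proteins that share its fold. The members followed here by name were 6 genes of its GLIPR, PI and CRISPLD branches: Glipr1, Glipr2, Pi15, Pi16, Crispld1 and Crispld2. All 6 had a row among the 15159 genes of the count table, and all 6 passed the filter on low counts that left 14758 genes for testing. They were chosen with results of these data in view, and the choice used the comparison of H3K9M with H3WT. Their levels and fold changes are therefore given as descriptions, without p-values.

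Most CAP proteins carry a signal peptide and are released into the extracellular space, where members of the family have been described as protease inhibitors, lipid-binding proteins and matrix-associated factors. GLIPR2 is the exception among these genes, since it is a myristoylated protein on the cytosolic face of the Golgi membrane. In the heart, PI16 is known as a fibroblast product that restrains cardiomyocyte growth.

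The cells were embryonic cardiac cells from mouse embryos at day 18.5 of the strain cross C57BL/6 x 129S4/SvJae. They carried an inducible histone H3.3 transgene, which encoded either the wild-type protein (H3WT, the control) or a form with methionine in place of lysine 9 (H3K9M, labelled as having suppressed H3K9 methylation). Both groups received doxycycline at 2 µg/ml on days 0, 1 and 2 and grew for 4 days on silicone (PDMS) of 13 kPa, and each had 3 libraries of polyadenylated RNA. The labels name neither the promoter or locus of the transgene nor the animal behind each library, and any p-value therefore reflects the library-to-library spread alone, which may be technical. The titles of replicate 2 in both groups lack the word that marks the soft substrate in the other titles, while the growth protocol gives 13 kPa for every sample.

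The libraries held between 55550379 and 67994773 counts, so 1 CPM (the usual count scaled to library size, here with TMM factors) stood for 55.5 to 68.1 reads. Markers of cardiomyocytes, fibroblasts, smooth muscle and endothelium were all present, with 7 of 7 genes of each list tested, and so were 6 of 7 macrophage and leukocyte markers. No gene of the 5 erythroid markers was in the table used. The cultures were mixed, and in such bulk RNA fewer cells of a type and less RNA per cell cannot be told apart. The edgeR test at an adjusted p under 0.05 called 138 genes higher and 155 genes lower, which is 1.99% of the 14758, and the median log2 fold change was -0.00245.

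Compared per length, the 6 genes fell into an abundant pair, a middle pair and a pair with few reads. Levels per length were CPM divided by the kilobases of annotated exon of the gene. In H3WT the order was Glipr2 at 58.4 ± 6.85 CPM per kilobase (SD, n = 3), Glipr1 at 22.4 ± 2.18, Crispld2 at 3.40 ± 2.22, Pi15 at 3.02 ± 2.22, Crispld1 at 0.173 ± 0.0148 and Pi16 at 0.0817 ± 0.0578. With this length, neighbours in the order did not overlap between libraries except Crispld2 and Pi15. In H3K9M the order was the same, but the ranges of Glipr2 (68.1 to 78.3 CPM per kilobase) and Glipr1 (61.2 to 70.3) now overlapped. The order of this pair in H3K9M rests on the gene length: with the longest annotated transcript in place of all exons, Glipr1 stood at 87.3 and Glipr2 at 73.2 CPM per kilobase. With all exons, ranges of Crispld2 and Pi15 overlapped in H3K9M too, and so did those of Crispld1 and Pi16. The order of Crispld1 and Pi16 in H3K9M also turned with the longest transcript, at 0.0886 ± 0.0653 and 0.121 ± 0.108 CPM per kilobase. The GLIPR genes made up between 86.2% and 98.6% of the summed level per length in every library.

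**Figure D1:**
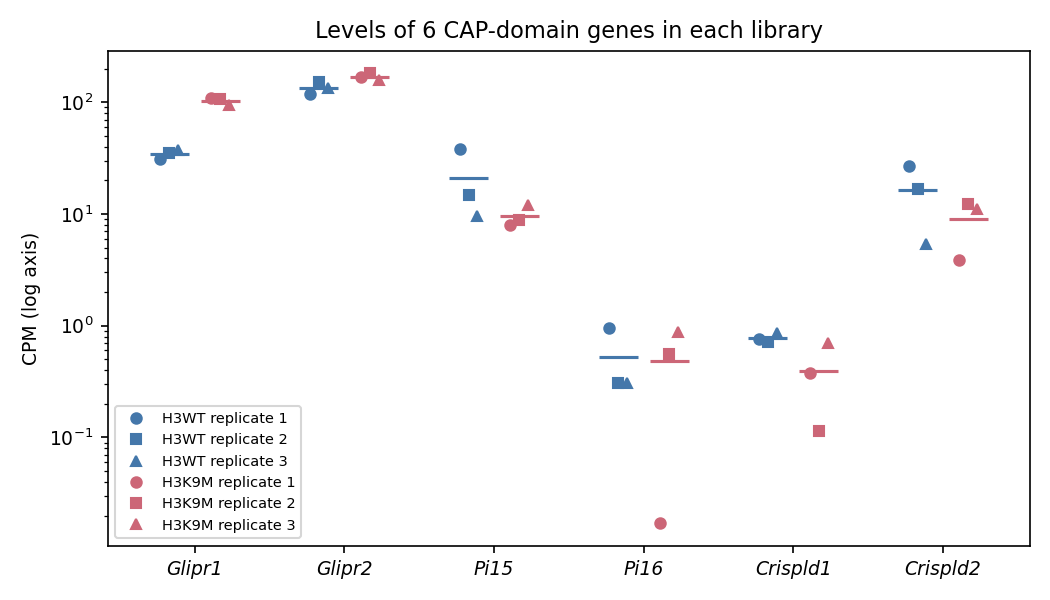
CPM (log axis) of the 6 CAP-domain genes in each library, with H3WT in blue, H3K9M in red, a marker shape for each replicate number and a line at each group mean. The H3WT libraries of Glipr1 sit at 31.0 to 37.7 CPM and its H3K9M libraries at 94.5 to 108 CPM, while Pi15, Crispld2 and Pi16 overlap between groups.

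Glipr1 encodes a secreted and membrane-associated CAP protein, also called RTVP-1, that was described in glioma and as a target of the tumour suppressor p53. It stood at 31.0, 35.2 and 37.7 CPM in H3WT replicates 1, 2 and 3, and at 108, 107 and 94.5 CPM in H3K9M replicates 1, 2 and 3. All 3 H3K9M libraries were above all 3 H3WT libraries, and the lowest H3K9M value was far above the highest H3WT value. The group means were 34.6 ± 3.36 and 103 ± 7.68 CPM, a log2 fold change of 1.58 ± 0.10 (SE), or 2.98-fold. The spread within a group was small, with a coefficient of variation of 9.70% in H3WT and 7.44% in H3K9M, against medians of 11.1% and 10.3% over all tested genes. By the size of its log2 fold change Glipr1 had rank 306 of 14758. It was the 1 member of 6 past the adjusted threshold of 0.05, in the higher direction, where 0.935% of all tested genes were called higher, and no member was called lower (0, against 1.05%). Nothing is read from these counts because the choice of the genes used them. Without any 1 library the log2 fold change of Glipr1 lay between 1.50 and 1.64, and its edgeR call was kept in all 6 such fits. In the authors' deposited table the log2 fold change of Glipr1 was 1.32 ± 0.12 (their standard error), the same direction and a smaller value.

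Glipr1 lies on the minus strand of chromosome 10 at 111985448 to 112002631 (GRCm38, the build also called mm10), and its 3′ end overlaps Krr1, a ribosome biogenesis gene on the other strand. Exons of the 2 genes share 352 bases, which is 22.8% of the annotated exon bases of Glipr1. The strand setting of the counting is not given in the sources used here, so reads in that stretch cannot be assigned. Krr1, named for this overlap, had means of 30.0 ± 2.25 CPM for H3WT and 28.9 ± 4.22 CPM for H3K9M, a difference of -0.05 ± 0.12 on the log2 scale. Its groups overlapped and it was not called (edgeR adjusted p = 0.877). The nearest genes with a row on either side that do not overlap Glipr1 were Phlda1, 476803 bases away, and Atxn7l3b, 922799 bases away. Phlda1, a pleckstrin homology-like domain gene, was at 0.06 ± 0.13 on the log2 scale with an edgeR adjusted p of 0.873, and Atxn7l3b by -0.02 ± 0.07 with one of 0.932, so neither passed. Of the 50-base words in annotated transcripts of Glipr1, 5.30% also occur in another gene, so a small part of its reads could be shared.

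**Figure D2:**
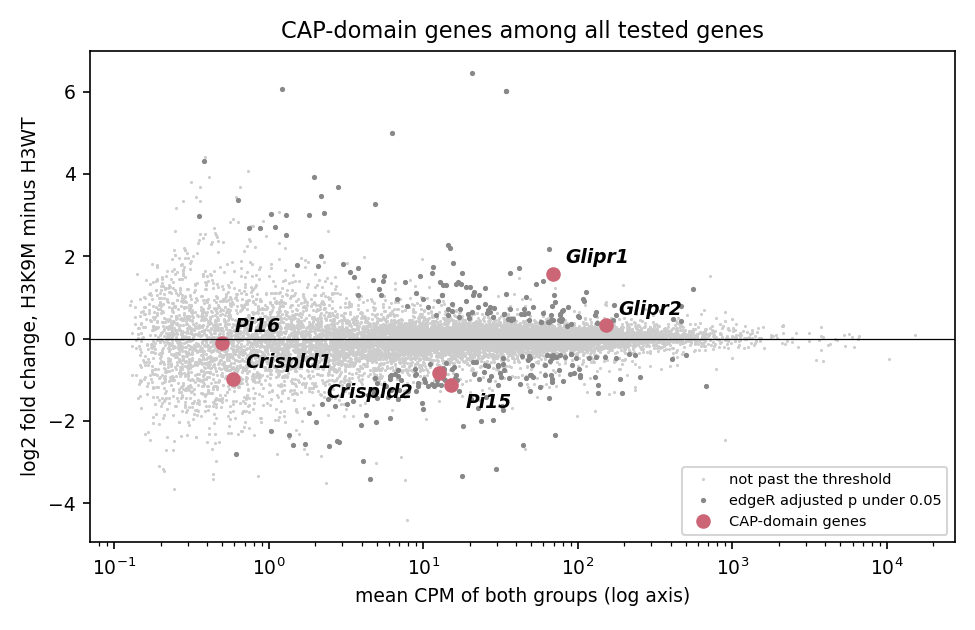
Log2 fold change (H3K9M minus H3WT) against mean CPM (log axis) for all 14758 tested genes, with genes past an edgeR adjusted p of 0.05 in dark grey and the 6 CAP-domain genes in red. Glipr1 at 1.58 lies among the dark points above the main cloud, Glipr2 at 0.33 lies near its upper edge, and the other 4 genes lie below 0.

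Glipr2, the Golgi-associated member also called GAPR-1, is known as a negative regulator of autophagy that binds Beclin 1. Its level was 119, 151 and 135 CPM in H3WT replicates 1, 2 and 3, and 169.8, 182 and 158 CPM in H3K9M replicates 1, 2 and 3. The H3K9M libraries were again all above the H3WT libraries, but the lowest of the first (158 CPM) was close to the highest of the second (151 CPM). The means were 135 ± 15.9 and 169.9 ± 11.8 CPM, a log2 fold change of 0.33 ± 0.10, or 1.25-fold. Glipr2 did not pass the edgeR threshold, and DESeq2 on the same counts placed it just past that threshold. Leaving out 1 library at a time gave log2 fold changes between 0.24 and 0.41, all positive and none called. The gene lies on chromosome 4 at 43957401 to 43979118, no annotated gene overlaps it, and none of its 50-base words occurs in another gene (0%). Its neighbour Reck, a membrane-anchored inhibitor of matrix metalloproteinases 12595 bases away, was at -0.37 ± 0.15 on the log2 scale and did not pass (edgeR adjusted p = 0.262). On the other side Ccin, 4365 bases away, was at 0.79 ± 0.97 and did not pass. Ccin had 10, 0 and 28 reads in H3WT replicates 1, 2 and 3, and 17, 18 and 26 in H3K9M replicates 1, 2 and 3.

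The balance between the GLIPR genes differed between groups in every library. Per length, Glipr2 stood at 2.56, 2.86 and 2.39 times the level of Glipr1 in H3WT replicates 1, 2 and 3, and at 1.04, 1.13 and 1.11 times in H3K9M replicates 1, 2 and 3. With the longest annotated transcript as length the same ratio was 1.83 to 2.19 in H3WT and 0.799 to 0.866 in H3K9M, so which gene is higher in H3K9M turns with the length used. A change of length scales the ratio of every library alike, so the gap between the groups could not depend on it. The ratio also carries the Glipr1 difference that the choice of the genes used. The summed level per length of the 6 genes was 87.5 ± 5.63 CPM per kilobase in H3WT and 144 ± 9.13 in H3K9M. Glipr1 supplied 24.2% to 28.5% of that sum in H3WT libraries and 45.7% to 48.3% in H3K9M libraries. The other 4 genes together supplied 13.8%, 6.20% and 3.23% in H3WT replicates 1, 2 and 3, and 1.41%, 2.60% and 3.23% in H3K9M replicates 1, 2 and 3.

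**Figure D3:**
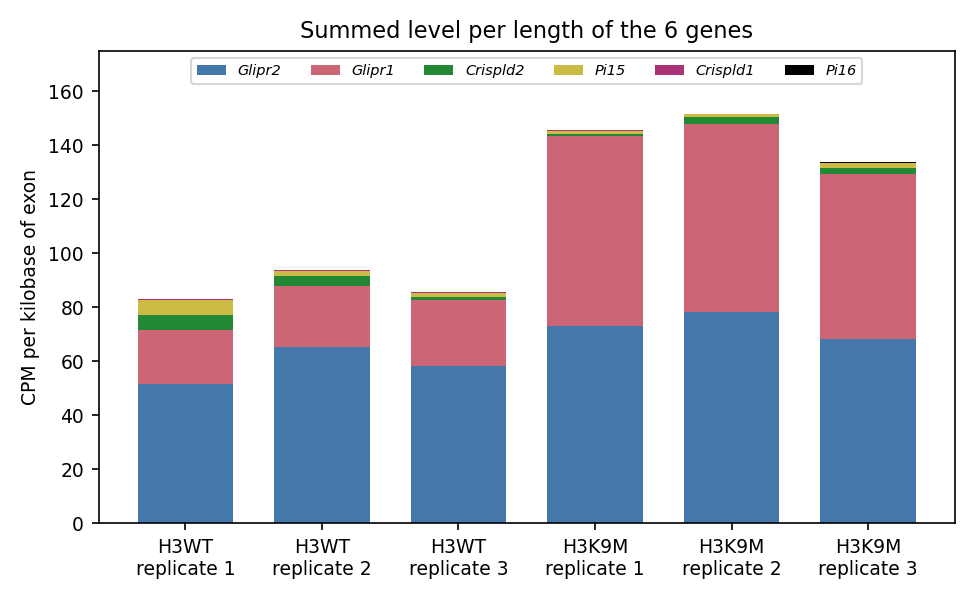
Stacked bars of CPM per kilobase of exon for the 6 genes in each library, from 0. The summed level is between 83.0 and 93.8 in the H3WT libraries and between 134 and 152 in the H3K9M libraries, and the red segment of Glipr1 widens most.

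Pi15 and Crispld2, both secreted, varied as much inside the H3WT group as between groups. Pi15 encodes a weak trypsin inhibitor of the extracellular space. It was at 38.4, 14.7 and 9.64 CPM in H3WT replicates 1, 2 and 3, and at 7.91, 8.82 and 11.9 CPM in H3K9M replicates 1, 2 and 3. H3WT replicate 1 stood apart as the highest library, and H3WT replicate 3 lay inside the H3K9M range. The means were 20.9 ± 15.4 and 9.55 ± 2.11 CPM, a log2 fold change of -1.13 ± 0.45 that was not called. The coefficient of variation was 73.5% in H3WT and 22.1% in H3K9M. Without H3WT replicate 1 the log2 fold change of Pi15 was -0.35, and without H3WT replicate 3 it was -1.48, not called in either fit.

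Crispld2, a secreted CAP protein with LCCL domains that binds lipopolysaccharide and is induced by glucocorticoids in fetal lung mesenchyme, was also highest in H3WT replicate 1. Its values were 26.6, 16.6 and 5.41 CPM in H3WT replicates 1, 2 and 3, and 3.91, 12.2 and 11.0 CPM in H3K9M replicates 1, 2 and 3. The groups overlapped, with the lowest value in H3K9M replicate 1 and the highest in H3WT replicate 1. The means were 16.2 ± 10.6 and 9.05 ± 4.49 CPM, a log2 fold change of -0.84 ± 0.56 that was not called. Without H3WT replicate 1 it was -0.28, without H3K9M replicate 1 it was -0.48, and with only replicates 2 and 3 of both groups it was 0.08, so its sign rests on H3WT and H3K9M replicate 1.

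Marker levels of other cell types also differed between libraries. The summed level of the 7 fibroblast markers was 19274, 17098 and 12830 CPM in H3WT replicates 1, 2 and 3, and 11527, 15765 and 18296 CPM in H3K9M replicates 1, 2 and 3. The sum was highest in H3WT replicate 1 and lowest in H3K9M replicate 1, as for Crispld2, but the collagen genes Col1a1, Col1a2 and Col3a1 carry most of it. Gene by gene, 4 of the 7 were highest in H3WT replicate 1 and 6 were lowest in H3K9M replicate 1, while Col1a1 was highest in H3K9M replicate 3. Fold changes were negative for 5 of the 7 (median -0.55), among them Pdgfra (-0.58 ± 0.28), Dcn (-0.67 ± 0.42) and Tcf21 (-0.88 ± 0.35). None of the 7 passed the edgeR test, 1 had an unadjusted p under 0.05 and neither DESeq2 nor limma-voom called any (0 and 0). The 6 tested macrophage and leukocyte markers summed to 418 CPM in H3WT replicate 1, 220.4 in replicate 2 and 111 in replicate 3, against 172 to 223 CPM in H3K9M. All 6 of them were highest in H3WT replicate 1, and 5 were lowest in H3WT replicate 3. The part of fibroblast and macrophage content in the levels of Pi15, Crispld2 and Pi16 was not tested. The cardiomyocyte sum was 25094 to 31006 CPM in H3WT and 26872 to 30082 CPM in H3K9M. Fold changes were positive for 6 of its 7 markers (median 0.07), and Pln (0.36 ± 0.09) was higher in all H3K9M libraries. None passed in edgeR, 1 had an unadjusted p under 0.05, DESeq2 called 1 (against 6.8% of its genes) and limma-voom 0. Of the 7 smooth muscle and pericyte markers 5 were negative (median -0.15), and edgeR, DESeq2 and limma-voom called 0. The endothelial sum was 163 to 221 CPM in H3WT and 94.6 to 153 CPM in H3K9M, so it was lower in every H3K9M library. Inside H3WT, replicate 3 had the highest endothelial sum and also the highest Glipr1 level. Fold changes were negative for 6 of the 7 endothelial markers (median -0.59). None of the 7 passed in edgeR, 4 had an unadjusted p under 0.05, DESeq2 called 1 and limma-voom 0. The share of all tested genes at an unadjusted p under 0.05 was not counted, so such counts have no background for any list. Of the 7 epicardial and mesothelial markers 4 had positive fold changes (median 0.62), although their sum overlapped between groups (103 to 172 CPM in H3WT and 109.8 to 117 CPM in H3K9M). Msln (1.32 ± 0.44) and Upk1b (1.75 ± 0.95), both at low levels, were higher in all H3K9M libraries, and Krt19 was at 2.98 ± 2.56 and 8.08 ± 2.95 CPM. Like Pln, these were named with their values in view, and 22.6% of all tested genes did not overlap between groups. Wt1 (-0.41 ± 0.23), Aldh1a2 (-0.92 ± 0.38) and Tbx18 (-0.04 ± 0.09) were negative, and the last 2 had the highest levels of the list. None of these 7 passed in edgeR, 3 had an unadjusted p under 0.05, and DESeq2 and limma-voom called 0. The part of cardiomyocyte, fibroblast, smooth muscle, endothelial and epicardial content in the Glipr1 difference was not tested.

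Pi16 and Crispld1 had at most 58 reads in any library. Pi16, a marker of adventitial fibroblasts, had 53, 17 and 21 reads in H3WT replicates 1, 2 and 3, and 1, 34 and 50 reads in H3K9M replicates 1, 2 and 3. The single read in H3K9M replicate 1 is 0.0171 CPM, with an exact 95% Poisson interval of 0.000432 to 0.0951 CPM that covers counting error only, and that library lay below all others. The group means of Pi16 were 0.520 ± 0.368 and 0.483 ± 0.433 CPM, with a log2 fold change of -0.10 ± 0.98. It was 0.65 without H3WT replicate 1 and 0.46 without H3K9M replicate 1, so no direction can be given. Crispld1, another secreted LCCL-domain protein, had 43, 40 and 58 reads in H3WT replicates 1, 2 and 3, and 22, 7 and 40 reads in H3K9M replicates 1, 2 and 3. On the CPM scale the H3K9M libraries (0.376, 0.115 and 0.698) were all below the H3WT libraries (0.766, 0.721 and 0.852), though the highest of the first nearly reached the lowest of the second. Its log2 fold change was -0.98 ± 0.64 and was not called, and it lay between -1.66 and -0.54 with 1 library left out.

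**Figure D4:**
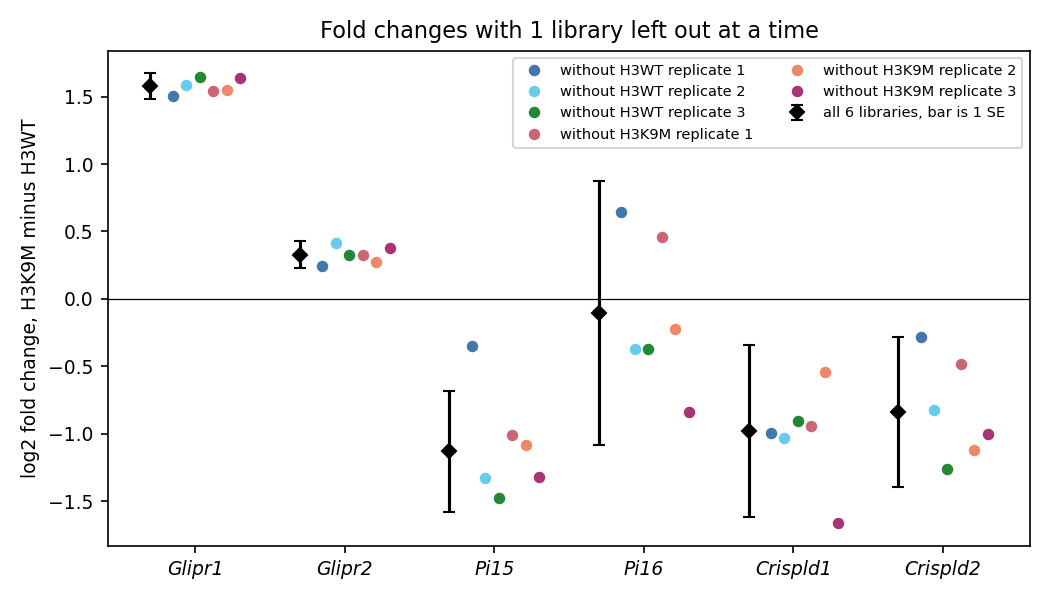
Log2 fold change (H3K9M minus H3WT) of each gene from all 6 libraries (diamond, bar of 1 SE) and with 1 library left out at a time (coloured points). Glipr1 stays between 1.50 and 1.64, whereas Pi16 lies on both sides of 0 (-0.84 to 0.65).

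In all, the levels of 3 of the 6 genes did not overlap between groups (Glipr1 and Glipr2 higher in H3K9M, Crispld1 lower), where 22.6% of all tested genes did not overlap. Of the 6, 2 had positive and 4 negative log2 fold changes, where 50.5% of all tested genes were negative. DESeq2 called 2 of them, where it called 6.8% of its genes, and limma-voom called 1, where it called 1.5% of its genes. The authors' deposited table holds 5 of the 6, all but Crispld1, and calls Glipr1 alone, where 4.02% of its genes are called. Their log2 fold changes had the same signs, with Glipr2 at 0.34 ± 0.12, Pi15 at -1.22 ± 0.66, Crispld2 at -0.85 ± 0.71 and Pi16 at -0.10 ± 1.06 in that table. The mean normalised counts of the authors' deposited table stood at a median of 0.252 times the mean raw counts here over 14412 shared genes, and which counts that table was made from is not given in the sources used here. It may rest on other counts, so its fold changes are no second measurement of the values given here.

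Pi15 and Crispld1 are neighbours on the plus strand of chromosome 1, with Pi15 at 17601901 to 17630939 and Crispld1 starting 96106 bases beyond its end, at 17727045 to 17766344. No other gene of the count table lies between them. The nearest on the outer sides, Gdap1 (1.35 ± 1.01, 437630 bases away) and Mcm3 (-0.11 ± 0.16, 3036624 bases away), were not called. Gdap1 had 18, 1 and 16 reads in H3WT replicates 1, 2 and 3, and 36, 4 and 46 in H3K9M replicates 1, 2 and 3. Its groups overlapped. H3WT replicate 1 was the highest library for Pi15, while the 3 H3WT libraries of Crispld1 lay between 0.721 and 0.852 CPM. Crispld2 is on chromosome 8 at 119992438 to 120052793 between Usp10 (a log2 difference of 0.10 ± 0.11, with 0.688 as edgeR adjusted p) and Zdhhc7 (-0.11 ± 0.08, with 0.528). Pi16 is on chromosome 17 at 29317680 to 29330593, 1479 bases from the mitochondrial carrier homologue Mtch1, which was at 286 ± 26.9 and 238 ± 20.8 CPM (a log2 difference of -0.26 ± 0.10, with 0.244 as edgeR adjusted p), and on its other side BC004004 was at 0.14 ± 0.07. None of these neighbours passed. Pi15, Pi16, Crispld1 and Crispld2 each overlap the span of 1 or 2 annotated genes without a row of their own, and shared exon bases were not counted for them.

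The RefSeq table of promoters used here (GRCm38.p6, 250 bases before to 50 bases after each start) matched 3 of the 6 genes, Glipr2, Crispld2 and Pi16. They are printed because they differ in CpG content, and CpG-rich promoters are common among widely expressed genes. Each is on the plus strand, 5′ to 3′, with every CG in capitals.
Glipr2, chr4:43957452-43957751: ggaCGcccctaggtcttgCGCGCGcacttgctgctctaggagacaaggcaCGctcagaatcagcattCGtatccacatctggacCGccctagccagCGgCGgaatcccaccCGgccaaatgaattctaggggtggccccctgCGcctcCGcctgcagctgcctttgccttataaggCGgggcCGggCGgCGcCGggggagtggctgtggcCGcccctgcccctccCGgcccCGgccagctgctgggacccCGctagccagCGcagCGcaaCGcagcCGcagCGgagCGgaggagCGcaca
Crispld2, chr8:119992188-119992487: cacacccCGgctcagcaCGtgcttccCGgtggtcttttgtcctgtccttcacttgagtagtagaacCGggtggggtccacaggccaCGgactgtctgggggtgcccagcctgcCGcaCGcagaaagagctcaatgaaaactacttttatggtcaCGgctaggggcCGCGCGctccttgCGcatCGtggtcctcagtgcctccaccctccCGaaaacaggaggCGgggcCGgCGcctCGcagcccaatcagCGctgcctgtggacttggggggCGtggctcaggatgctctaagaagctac
Pi16, chr17:29318632-29318931: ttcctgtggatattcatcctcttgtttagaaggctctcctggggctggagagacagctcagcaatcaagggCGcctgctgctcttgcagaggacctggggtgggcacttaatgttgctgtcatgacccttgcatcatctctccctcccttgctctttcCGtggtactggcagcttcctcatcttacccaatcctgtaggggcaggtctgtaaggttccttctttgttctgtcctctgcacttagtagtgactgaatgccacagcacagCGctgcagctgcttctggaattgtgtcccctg
The window of Glipr2 holds 28 CG and is 70.0% G or C, that of Crispld2 holds 20 CG (63.0%), and that of Pi16 holds 3 CG (53.3%). The median of 32851 promoter windows was 7 CG, and 85.8%, 73.5% and 23.3% of those windows held fewer than Glipr2, Crispld2 and Pi16. The TATA box letters TATAAA occurred on neither strand of the 3 windows, against 13.6% of all windows with at least 1 match. The glucocorticoid receptor half-site letters AGAACA, sought on both strands too, occurred 1 time in the window of Pi16 and not in those of Glipr2 or Crispld2, against 19.0% of all windows. These matches describe letters only. The windows of Glipr2 and Pi16 begin inside the annotated spans of the genes (from 43957401 and 29317680), so they miss the annotated 5′ ends. The window of Crispld2 crosses its annotated start.

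Genes whose pattern over the 6 libraries was most like that of each member were sought among 10508 named genes with a mean of at least 5 CPM, by Pearson's r of log2 CPM. For Glipr1 they were Tpst2, a tyrosylprotein sulfotransferase (r = 0.996), and Trim24, a transcriptional corepressor (0.994), at log2 fold changes of 0.45 ± 0.07 and 1.05 ± 0.09. For Glipr2 they were Tspo, a mitochondrial outer membrane protein (0.995), and Nmt1, an N-myristoyltransferase (0.991). For Pi15 they were Aldh1a2, the retinoic acid synthesis enzyme (0.996), and Slfn5 (0.995). Aldh1a2 was at 86.9, 41.5 and 25.4 CPM in H3WT replicates 1, 2 and 3 and between 23.1 and 32.1 CPM in H3K9M, so it shared the high value of H3WT replicate 1, and it is also 1 of the 7 epicardial markers. For Crispld2 they were Hbp1 (0.993) and Lilrb4a (0.989). Between 166 and 363 genes had r above 0.9 with a given member, and points from the same 6 libraries share depth and cell content, so these values are descriptions.

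The genes around each member were read from lists chosen by function, with earlier results of these data known. Counts in these lists are therefore descriptions. The rest of the superfamily, 9 genes with the Crisp genes and the Glipr1-like genes among them, had no row in the table used. Of 15 adventitial fibroblast genes, the setting in which Pi16 is known, 2 fell and 0 rose in edgeR at an adjusted p under 0.05. Over all tested genes 1.05% fell and 0.935% rose. The median log2 fold change of the 15 was 0.09 against -0.00245 over all tested genes. DESeq2 called 3 of them higher and 2 lower (6.8% of its genes were called), and limma-voom called 0 higher and 1 lower (1.5%). With only replicates 2 and 3 of both groups edgeR called 2 higher and 1 lower, so the balance of directions depends on the tool and the libraries. Over all 14785 genes of that fit 122 were called higher and 114 lower. Ly6c1 (1.35 ± 0.34), Anxa3 (0.49 ± 0.13) and Cd248 (0.31 ± 0.07) were higher in all H3K9M libraries than in any H3WT library and did not pass in edgeR (adjusted p = 0.0929, 0.0959 and 0.0724). They were named with these values in view. Over all tested genes 22.6% did not overlap between groups, in either direction. Sema3c, a secreted semaphorin, fell from 44.5, 50.3 and 56.8 CPM in H3WT replicates 1, 2 and 3 to 16.8, 12.2 and 16.6 CPM in H3K9M replicates 1, 2 and 3. Its log2 fold change was -1.74 ± 0.15 (edgeR adjusted p = 0.00222), and all H3K9M libraries were below all H3WT libraries. Efhd1, a mitochondrial calcium-binding protein, fell from 8.06 ± 1.06 to 4.34 ± 0.594 CPM (-0.89 ± 0.18, edgeR adjusted p = 0.0472). That call on Efhd1 was lost without any 1 of the 6 libraries (0.0647 to 0.171) and with limma-voom (0.0607). The most abundant genes of the list, Fbn1 (-0.12 ± 0.13) and Gsn (-0.05 ± 0.21), did not pass.

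**Figure D5:**
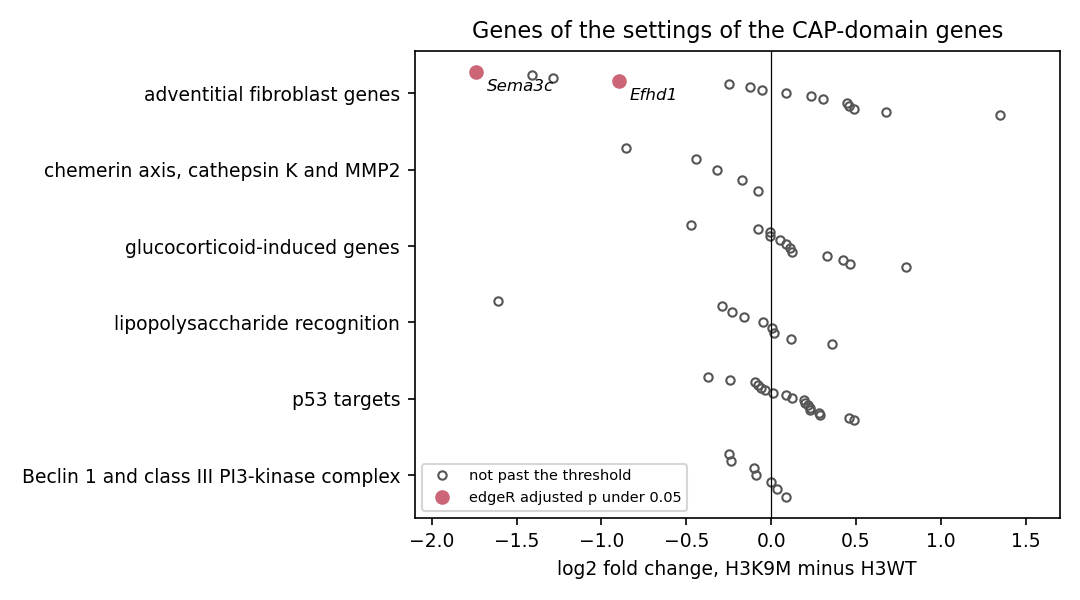
Log2 fold change (H3K9M minus H3WT) of each tested gene of 6 lists, with genes past an edgeR adjusted p of 0.05 as filled red points. Sema3c at -1.74 and Efhd1 at -0.89 are the filled points, both among the adventitial fibroblast genes.

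Among reported partners of Pi16, all 5 tested genes had negative log2 fold changes (median -0.32) and none passed in edgeR. In that list 2 had an unadjusted p under 0.05, a cut whose share over all tested genes was not counted. DESeq2 called 1, where it called 6.8% of its genes, and limma-voom called 0. The matrix metalloproteinase gene Mmp2 was at 502 ± 84.9 and 369.9 ± 53.01 CPM (a log2 difference of -0.44 ± 0.15, with 0.182 as edgeR adjusted p), and the chemerin receptor gene Cmklr1 at -0.32 ± 0.21. The p53 list, the setting of Glipr1, held 18 genes, Trp53 itself and targets of p53. Of these, 12 had positive and 6 negative fold changes (median 0.16), and none passed in edgeR. In the p53 list 4 had an unadjusted p under 0.05. DESeq2 called 2 higher and 0 lower, where it called 6.8% of its genes, and limma-voom called 0. The cyclin gene Ccng1 was at 348 ± 26.7 and 425 ± 18.2 CPM (0.29 ± 0.08, edgeR adjusted p = 0.132), and the cell cycle inhibitor gene Cdkn1a at 189 ± 39.9 and 206 ± 4.86 CPM (0.12 ± 0.14, 0.721).

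The glucocorticoid list, a setting of Crispld2, held 12 genes, the receptor gene Nr3c1 and glucocorticoid-induced genes. Of these, 8 had positive and 4 negative fold changes (median 0.10). None passed in edgeR, 1 had an unadjusted p under 0.05, and DESeq2 and limma-voom called 0. The receptor gene Nr3c1 was at 122 ± 12.4 and 122 ± 4.52 CPM, and the phosphatase gene Dusp1 at 0.33 ± 0.22 on the log2 scale. Of 9 genes of lipopolysaccharide recognition 4 were positive and 5 negative (median -0.05), and none passed in edgeR, with 2 at an unadjusted p under 0.05 and 0 called by DESeq2 or limma-voom. The kinase gene Irak1 (0.02 ± 0.07) and the adaptor gene Ticam1 (-0.05 ± 0.09) had the highest levels of that list. Of 7 tested genes of the Beclin 1 and class III PI3-kinase complex, the setting of Glipr2, 3 were positive and 4 negative (median -0.09). None passed in edgeR or had an unadjusted p under 0.05 (0 genes), and DESeq2 and limma-voom called 0. Becn1, which encodes the binding partner of GLIPR2, was at 78.7 ± 3.22 and 83.7 ± 1.30 CPM (0.09 ± 0.07, edgeR adjusted p = 0.561), and Uvrag at 0.04 ± 0.08.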

How the data were processed

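Polyadenylated RNA of 3 H3WT and 3 H3K9M samples was sequenced. HISAT2, featureCounts and DESeq2 are named, with the build mm10, in the submitters' processing notes. Tool versions and the strand setting: not given in the sources used here. Raw counts were deposited by the authors for 15159 genes, and a table of their own comparison with mean normalised counts (a signal deposited by the authors), log2 fold changes, p-values and a Wald score, which the authors also gave and which was not used.

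Counts were filtered with filterByExpr (minimum count 10, total 15), scaled with TMM and tested in R 4.3.3 with edgeR 4.0.16 (glmQLFit and glmQLFTest). The model held group alone, and p-values were adjusted after Benjamini and Hochberg over 14758 genes. Deposited values were used as given. The standard error is the log2 fold change over the square root of F. An exact permutation test of 1 gene, 3 against 3, cannot go below 0.1. Gene lengths and positions are from GENCODE M21 (GRCm38), which names 14562 of the rows. Alternatives were DESeq2 1.42.0, limma-voom (limma 3.58.1), RLE factors, other filters, a replicate block, leaving out each library, the longest transcript as gene length, deposited library totals, and, chosen after seeing the data, only replicates 2 and 3 of both groups. Replicates of a group differed by a chi-square per gene of 27.0 to 121, so none is a copy of another. On simulated counts of 14758 genes for this comparison 79% of the 2-fold and 99% of the 4-fold changes were recovered by edgeR, with 4 false calls among 182. The simulation gave every gene the same dispersion (0.035), so these rates may not hold for the real counts, where the spread differs between genes. Recovery at a spread as wide as that of Pi15, Crispld2 and Pi16 was not tested separately. In H3WT the coefficients of variation of Pi15, Crispld2 and Pi16 were 73.5%, 65.4% and 70.8%, against a median of 11.1% over all tested genes.

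The members and lists were chosen with earlier results of these data known. Genes are named by rule: the members, the called genes and the 2 most abundant genes of each list, the nearest gene with a row on each side, and the 2 most alike genes. Krr1, Ly6c1, Anxa3, Cd248 and the cell type markers named singly fall outside that rule and were chosen with their values in view.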

Additional observations from a re-analysis of the deposited data

How the results depend on the processing

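Glipr1 kept its direction and its call in all 13 alternatives (log2 fold change 1.47 to 1.64). Glipr2 was positive in all 13 and was called by DESeq2 alone, which moved the members called higher from 1 to 2. Leaving out 1 library at a time gave 1 member higher (1 to 1) and 0 lower (0 to 0) in every fit. Pi15 was negative in all 13 (-1.48 to -0.23) and Crispld1 in all 12 that tested it. Pi16 lay between -0.84 and 0.65 with 1 library left out, and its sign was reversed when H3WT replicate 1 (0.65) or H3K9M replicate 1 (0.46) was left out. With only replicates 2 and 3 of both groups Pi16 was at 1.21 and Crispld2 was reversed, at 0.081. Over all genes DESeq2 called 471 higher and 539 lower, and with 1 library left out 30 to 149 were higher and 30 to 223 lower. Labels give both groups replicates 1 to 3, and same-numbered samples had correlations of deviations of -0.25, 0.05 and -0.12. Such values cannot show whether same-numbered samples shared a preparation or an animal. The titles also carry a tag that both groups share in replicates 1 and 3 but not in replicate 2, and its meaning is not given. A replicate block gave 31 higher and 27 lower genes, kept the call on Glipr1 and lost that on Efhd1 (edgeR adjusted p = 0.142). Dividing by the longest annotated transcript of Glipr1 in place of all its exons gave 29.3 CPM per kilobase in H3WT and 87.3 in H3K9M, above Glipr2 at 73.2 in H3K9M. The filter of at least 5 CPM in 3 libraries left no value for Pi16 and Crispld1, whose low read numbers limit what can be seen of them. Without H3K9M replicate 1, 1 of the 12 genes of the glucocorticoid list was called lower, against 49 of all 14905 genes of that fit.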
